A study of Homo sapiens with 6 samples.

Results

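AXIN1, AXIN2, NKD1, RNF43, ZNRF3, DKK1, DKK3, SFRP1, TCF7 and LEF1 are regulators and transcription factors of the Wnt pathway, and their RNA levels were compared between 3D and 2D cultures of SKOV3, an established human ovarian cancer cell line. The genes were chosen by name, with earlier results of these data known. Of the 10 listed genes, 9 carried a probe set in the platform annotation used here, out of 14884 annotated genes in all, and TCF7 was not analysed here. Each of the 9 genes had 1 probe set. The 3D group (n = 3 arrays) was cultured for 11 days on low-attachment plates with 0.015% (w/v) FP001, an additive the labels give under this code name alone. The 2D group (n = 3 arrays) grew for the same time on attachment plates in normal medium. Both groups had McCoy's 5A medium with 15% serum. Plate and additive differed together, so their effects cannot be told apart, and all arrays came from 1 cell line.

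Wnt ligands bind Frizzled receptors and LRP co-receptors, which stops a destruction complex built on AXIN from marking beta-catenin for degradation. Beta-catenin then enters the nucleus and acts with TCF and LEF factors on target genes. Several of those targets encode inhibitors of the pathway itself. AXIN2 restores the destruction complex, NKD1 binds Dishevelled, RNF43 and ZNRF3 remove Frizzled receptors from the cell surface, and DKK1 blocks the LRP co-receptors outside the cell.

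The values are log2 values made by RMA, which corrects background, evens out the arrays and summarises the probes of each probe set. Changes are 3D minus 2D on that scale, and levels of different genes cannot be compared. Across all genes the groups separated on the first principal component (59.1% of the variance), and 3D replicate 1 lay apart from the other 3D arrays on the second (18.4%). Of 6 epithelial markers measured, 3 rose, EPCAM and the keratin gene KRT19 among them, and KRT7 fell. Of 3 leukocyte markers measured LYZ rose, and of 5 fibroblast and endothelium markers PECAM1 rose. The mean log2 value over the 3 leukocyte markers was 4.49 to 4.82 in 3D and 3.99 to 4.38 in 2D, and that over the 5 fibroblast and endothelium markers 4.20 to 4.46 in 3D and 4.04 to 4.13 in 2D. The part of these shifts in the results on Wnt genes was not tested, and without detection calls no gene was called absent. Nothing in the labels says whether the arrays of a group came from separate cultures, so the p-values reflect the spread between these arrays alone, and that spread may be technical.

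Among the 9 genes, AXIN2 rose and DKK1 and DKK3 fell at an adjusted p under 0.05 (limma, Benjamini-Hochberg over all genes), and 6 did not pass. Of all genes tested 10% passed, 5.23% higher and 4.77% lower in 3D. The groups did not overlap for 7 of the 9 genes, 4 higher and 3 lower in 3D, against 29.2% of all genes (13.8% higher and 15.3% lower). At an unadjusted p under 0.05 there were also 7 of the 9 (23.5% of all genes). The median change of the 9 genes was 0.06, with -0.01 over all genes. The counts of 1 risen and 2 fallen genes were the same without 3D replicate 1, and DKK1 dropped out of them in the 3 fits given beside its values.

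**Figure D1:**
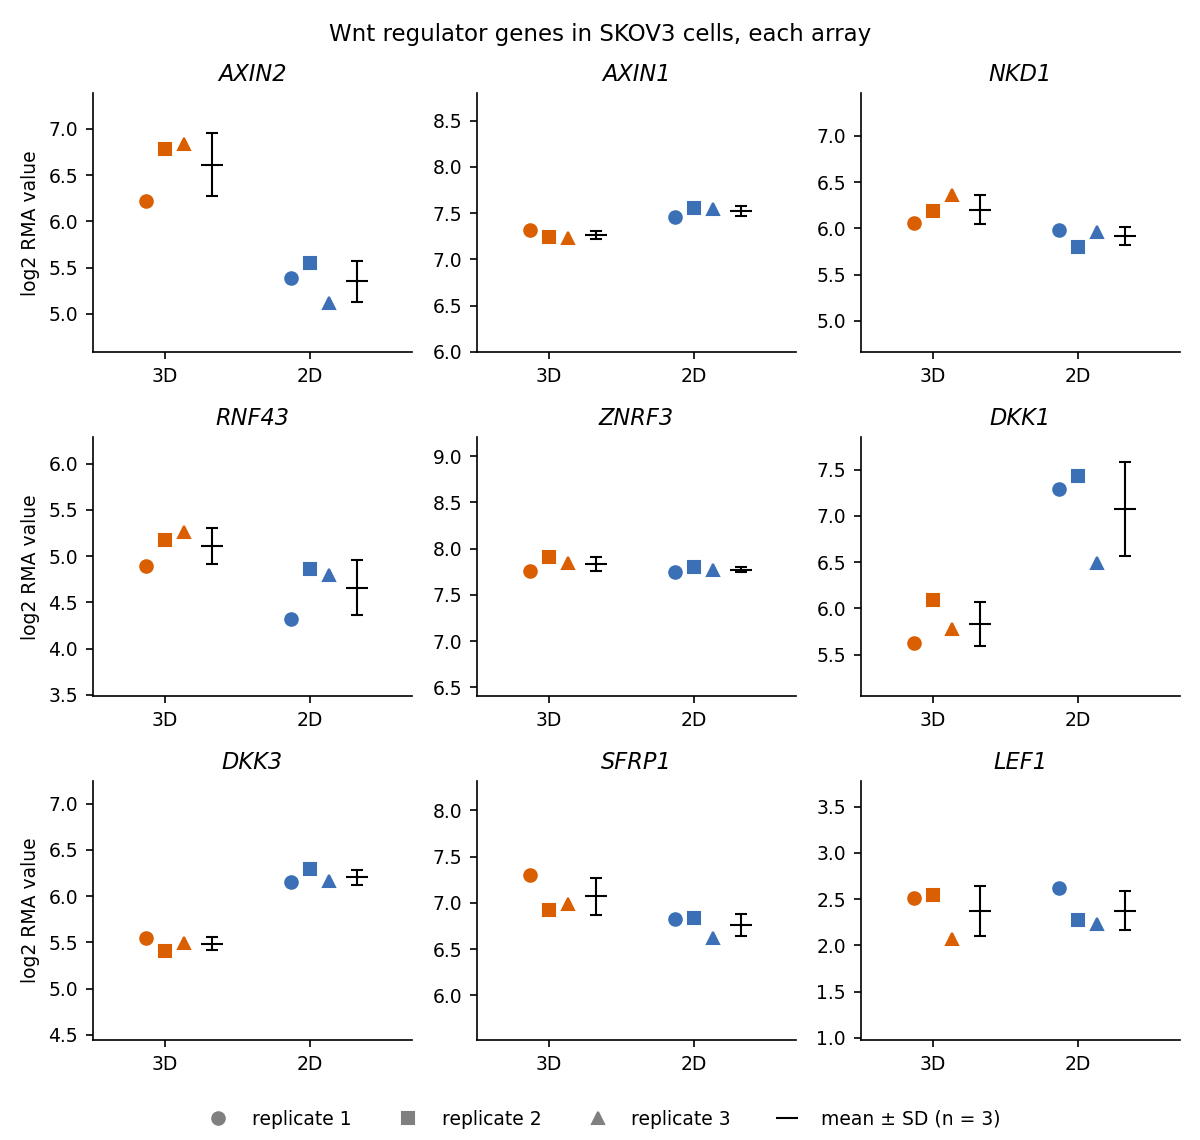
Log2 RMA values of the 9 genes in each 3D array (orange, left) and each 2D array (blue, right), with every panel spanning the same log2 range around its own centre and black bars for the mean ± SD (n = 3). AXIN2 stands higher in all 3D arrays, DKK1 and DKK3 stand lower, and the groups overlap for ZNRF3 and LEF1.

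The AXIN genes encode the scaffold on which the destruction complex assembles. AXIN1 is known as the constitutively expressed form, and AXIN2 as one of the most general Wnt-induced genes. AXIN2 read 6.22, 6.78 and 6.84 in 3D, against 5.39, 5.55 and 5.11 in 2D. All 3D arrays lay above all 2D arrays, with 3D replicate 1 the lowest of its group, 0.59 below the mean of the other 3D arrays. The means were 6.61 ± 0.34 in 3D and 5.35 ± 0.22 in 2D (SD, n = 3 each). The change was 1.26 ± 0.19 (SE), which is 2.40-fold, with a 95% confidence interval of 1.77 to 3.26 (limma adjusted p = 0.00603). By absolute change AXIN2 ranked 275 among the 14884 genes. The call held with each array left out in turn, with changes of 1.14 to 1.46. As in all bulk samples, a change in the share of cells that express a gene and a change in RNA per cell cannot be told apart.

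AXIN1 read 7.32, 7.25 and 7.23 in 3D and 7.46, 7.56 and 7.55 in 2D. The arrays of each group lay close together and the 3D values were all lower, by a gap of 0.15. The change of -0.26 ± 0.09 (SE) did not pass over all genes (limma adjusted p = 0.123), and its 95% confidence interval ran from -0.46 to -0.05. The AXIN1 and AXIN2 changes thus had opposite signs, and the difference between them was not tested.

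NKD1 encodes a protein that binds Dishevelled and dampens Wnt signalling. It read 6.05, 6.18 and 6.36 in 3D and 5.98, 5.80 and 5.96 in 2D, so the groups were separated by only 0.07. The change was 0.28 ± 0.11 (SE, limma adjusted p = 0.18).

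RNF43 and ZNRF3 encode related transmembrane ubiquitin ligases, which R-spondins and LGR receptors hold in check. RNF43 read 4.89, 5.18 and 5.26 in 3D and 4.32, 4.86 and 4.80 in 2D. The lowest 3D value stood 0.04 above the highest 2D value, and 2D replicate 1 was the lowest of all. The change of 0.45 ± 0.17 (SE) did not pass (limma adjusted p = 0.156), and it was 0.28 without 2D replicate 1 (adjusted p = 0.312). ZNRF3 read 7.75, 7.90 and 7.84 in 3D and 7.75, 7.80 and 7.77 in 2D, so the groups overlapped. Its change was 0.06 ± 0.09 (SE, limma adjusted p = 0.766), with 0.02 without 3D replicate 2 and 0.10 without 3D replicate 1. The 95% confidence interval of the ZNRF3 change ran from -0.15 to 0.27, which as a ratio of 3D to 2D starts at 0.902.

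Among the genes for secreted proteins, DKK1 encodes a ligand of the LRP co-receptors and is itself a known target of beta-catenin and TCF. DKK1 read 5.62, 6.09 and 5.77 in 3D, against 7.30, 7.43 and 6.49 in 2D. All 3D arrays lay below all 2D arrays, and 2D replicate 3 stood well below the other 2D arrays. The means were 5.83 ± 0.24 in 3D and 7.07 ± 0.51 in 2D (SD, n = 3 each). The change was -1.24 ± 0.25 (SE), a fall to 0.422 of the 2D level with a 95% confidence interval of 0.282 to 0.632 (limma adjusted p = 0.0204). DKK1 was not called without 3D replicate 3 (adjusted p = 0.0748), without 2D replicate 1 (0.0809) or without 2D replicate 2 (0.0688). Without 2D replicate 3 the change was -1.54 (adjusted p = 0.00381).

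Of the 4 genes among the 9 with windows in the RefSeq promoter table (GRCh38.p14), DKK1 was the 1 with a match to the TCF and LEF motif before its start, and its sequence is shown for that reason. The motif was searched on both strands in the 250 bases before each start, as CTTTG followed by an A or a T in each of the next 2 positions. The matches are in capitals, and the window runs 5′ to 3′ on the gene's strand, chr10:52314031-52314280, plus strand.
DKK1: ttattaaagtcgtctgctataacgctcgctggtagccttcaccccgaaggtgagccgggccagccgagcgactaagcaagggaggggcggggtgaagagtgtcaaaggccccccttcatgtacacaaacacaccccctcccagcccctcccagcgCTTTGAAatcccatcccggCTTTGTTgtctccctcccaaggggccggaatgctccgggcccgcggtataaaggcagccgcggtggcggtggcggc
The first match, CTTTGAA, began 95 bases before the start and the other, CTTTGTT, 76 bases before it. Both lie on the plus strand and do not overlap. At least 1 match was held by 4199 of all 35116 windows listed (12%), and by 9.80% of the 14884 windows that belong to tested genes. The windows of AXIN1, RNF43 (2 starts) and LEF1 held no match. The rest of the 9 genes, AXIN2 among them, had no window to search. A match describes the sequence and is no measure of binding.

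DKK3 encodes a secreted protein related to the Dickkopf antagonists, whose role in Wnt signalling is less settled than that of DKK1. It read 5.55, 5.41 and 5.49 in 3D, against 6.15, 6.29 and 6.17 in 2D. The groups were narrow and well apart, with 0.60 between them and a range of 0.14 within each. The means were 5.49 ± 0.07 in 3D and 6.20 ± 0.08 in 2D (SD, n = 3 each). The change was -0.72 ± 0.09 (SE, limma adjusted p = 0.00329), a fall to 0.609 of the 2D level with a 95% confidence interval of 0.523 to 0.708. Every fit without 1 array kept this call, with changes of -0.75 to -0.67.

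SFRP1 encodes a secreted Frizzled-related protein that binds Wnt ligands. It read 7.30, 6.92 and 6.99 in 3D and 6.83, 6.83 and 6.62 in 2D. The 3D values were all higher, with 3D replicate 1 the highest, and the gap between the groups was 0.09. The change of 0.31 ± 0.13 (SE) did not pass (limma adjusted p = 0.194), and it was 0.20 without 3D replicate 1 (adjusted p = 0.286). SFRP1 and the DKK genes thus had changes of opposite sign, and the difference was not tested.

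LEF1, one of the transcription factors through which beta-catenin acts, read 2.52, 2.54 and 2.06 in 3D and 2.62, 2.27 and 2.23 in 2D. The groups overlapped, and all values lay under the mean lower quartile of the arrays, 2.93. Its change was -0.0011 ± 0.17 (SE, limma adjusted p = 0.998). The 95% confidence interval of the change ran from -0.39 to 0.39, and at so dim a signal RMA compresses differences.

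**Figure D2:**
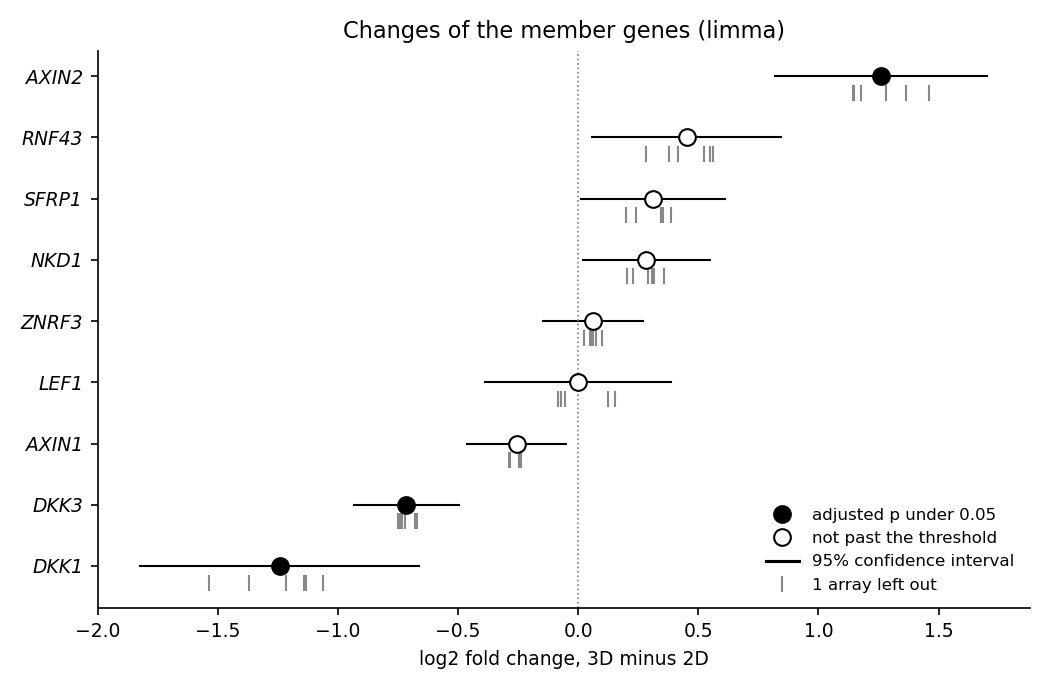
Log2 fold change (3D minus 2D) of each of the 9 genes with its 95% confidence interval, filled where the limma adjusted p was under 0.05, with grey ticks for the 6 fits that each leave out 1 array. AXIN2 lies at 1.26, DKK3 at -0.72 and DKK1 at -1.24, and DKK1 has the widest interval.

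Within the 3D group, replicate 1 lay below the mean of the other arrays for AXIN2 (by -0.59), RNF43 (-0.33), DKK1 (-0.31), NKD1 (-0.22) and ZNRF3 (-0.12). It lay above that mean for SFRP1 (0.34), LEF1 (0.21), DKK3 (0.10) and AXIN1 (0.08). For the genes whose groups did not overlap, 3D replicate 1 was thus the 3D array nearest to 2D for AXIN2, NKD1, RNF43, DKK3 and AXIN1, and the farthest for DKK1 and SFRP1.

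The genes whose pattern over the 6 arrays was most like that of each called gene were picked by the root mean square difference of log2 values centred on each gene's mean, among protein-coding genes. For AXIN2 these were MANSC1 (0.0653), RNF150 (0.0723) and FFAR4 (0.0828), and for DKK3 they were PARD3B (0.0464), the metallopeptidase inhibitor gene TIMP2 (0.0495) and ZFP30 (0.0505). For DKK1 the nearest were less close, MAP7D2 (0.179), the sphingosine 1-phosphate receptor gene S1PR1 (0.186) and NREP (0.191). MANSC1 read 7.46, 7.95 and 7.93 in 3D and 6.56, 6.82 and 6.39 in 2D. Like AXIN2, it had its lowest 3D value in replicate 1 and its lowest 2D value in replicate 3. The difference between the groups and the pattern within them both enter each of these distances, so such likeness follows from how the genes were picked. The distances are given as a description over 6 arrays.

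**Figure D3:**
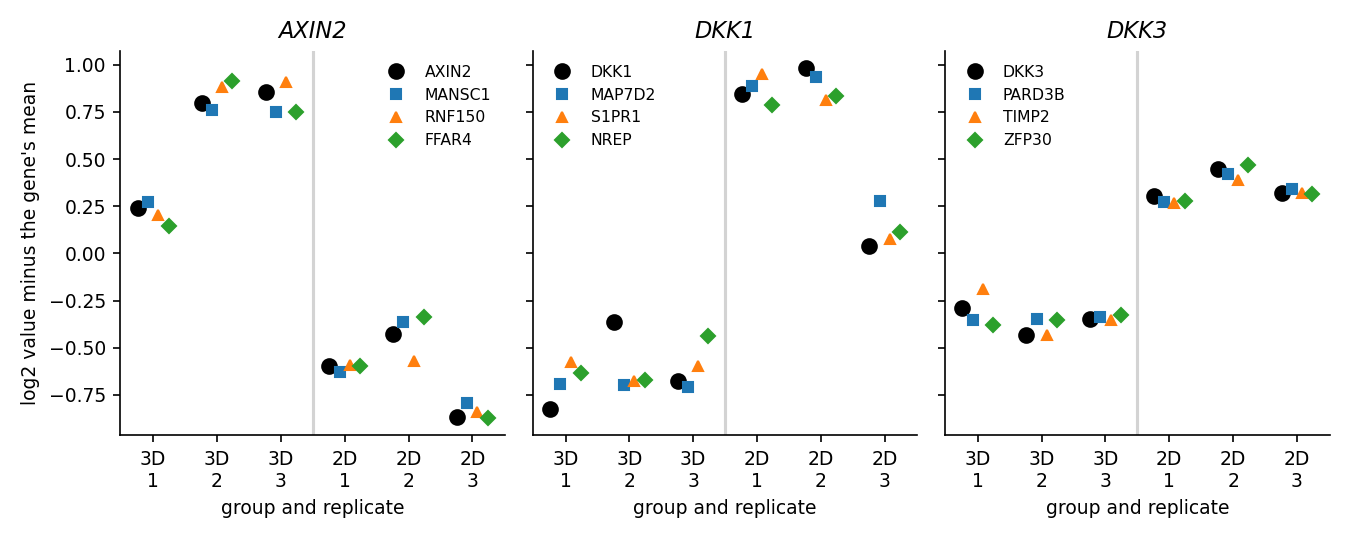
Log2 value minus the gene's own mean in each array, for AXIN2, DKK1 and DKK3 (black circles) and the 3 protein-coding genes with the smallest root mean square difference from each. The points of DKK3 and its neighbours nearly coincide, and those of DKK1 spread more, for example in 3D replicate 2.

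Around the 9 genes, 137 other Wnt pathway genes were listed by role, also with earlier results known, and 85 of them were measured. Of these 12 rose, 6 fell and 67 did not pass, with a median change of 0.01, beside 5.23% of all genes that rose, 4.77% that fell and a median of -0.01. With 1 array of the 3D group left out, 12 rose and 4 fell (replicate 1 left out), 7 rose and 2 fell (replicate 2), or 7 rose and 3 fell (replicate 3). With 1 array of the 2D group left out, 8 rose and 3 fell (replicate 1), 7 rose and 5 fell (replicate 2), or 9 rose and 5 fell (replicate 3). The shares of all genes called also dropped, to between 2.82% and 3.46% risen and between 2.34% and 2.96% fallen in these fits, except without replicate 1 of the 3D group (7.36% risen and 5.40% fallen).

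Of the ligand list, with 21 genes for ligands and their secretion, 2 were measured. WLS, which carries Wnt proteins to the cell surface, read 8.02, 8.04 and 8.29 in 3D, against 6.53, 6.91 and 6.82 in 2D. It rose 2.57-fold (1.36 ± 0.13 SE, limma adjusted p = 0.000832). The ligand gene WNT2 gave -0.11 ± 0.15 (adjusted p = 0.73).

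All 16 genes for Frizzled receptors and co-receptors were measured, and 2 rose, 1 fell and 13 did not pass (median 0.15). FZD1 read 8.58, 8.75 and 8.71 in 3D, against 6.91, 7.16 and 6.77 in 2D, a rise of 1.73 ± 0.12 (SE, limma adjusted p = 0.00025) and the largest change among the 85 genes. FZD2 read 6.61, 6.83 and 6.89 in 3D, against 8.12, 7.78 and 7.29 in 2D, a change of -0.96 ± 0.20 (SE, limma adjusted p = 0.0253). The receptor tyrosine kinase gene ROR1, a receptor of non-canonical Wnt signals, rose by 0.62 ± 0.12 (SE). The FZD2 call was lost without any single array other than 2D replicate 3 (adjusted p up to 0.0864), and ROR1 kept its call only without 3D replicate 1 or 2D replicate 3 (up to 0.0766 otherwise).

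Of 7 genes for R-spondins and their LGR receptors 2 rose and 5 did not pass (median 0.07), and all were measured. LGR4 read 9.90, 9.97 and 9.97 in 3D, against 9.14, 9.04 and 8.91 in 2D, a rise of 0.92 ± 0.10 (SE, limma adjusted p = 0.00118). LGR5, itself a Wnt target and stem cell marker of the intestine, read 4.36, 5.01 and 5.12 in 3D, against 3.33, 3.73 and 3.41 in 2D. All its 2D values were below the mean array median of 4.33, and it rose by 1.34 ± 0.21 (SE, adjusted p = 0.00739). The 4 R-spondin genes gave changes of -0.10 to 0.07, and none passed.

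Of 16 further antagonist genes measured, 1 rose, 0 fell and 15 did not pass (median 0.05). The riser was APCDD1, a membrane-bound Wnt inhibitor, which rose by 0.43 ± 0.11 (SE, limma adjusted p = 0.041). Its call was lost without any single array (adjusted p = 0.0665 to 0.131). DKK2 and DKK4, relatives of DKK1, gave -0.05 ± 0.14 and -0.05 ± 0.15 (SE), and NKD2, the paralog of NKD1, gave -0.01 ± 0.12. All DKK2 values lay under the mean lower quartile of 2.93, and all DKK4 values under the mean array median of 4.33. FRZB gave 0.72 ± 0.22 (adjusted p = 0.0946) with all 3D arrays above the 2D arrays. Its signal was dim, with 3.10, 3.13 and 3.94 in 3D and 2.83, 2.61 and 2.56 in 2D. Those 2D values all lay under the mean lower quartile of 2.93.

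Of 18 genes listed for Dishevelled and the destruction complex 7 were measured, APC and both GSK3 genes among them. The Dishevelled genes, the listed casein kinase genes and the beta-catenin gene were not measured. Among the measured genes 0 rose and 1 fell (median -0.06). The deubiquitinase gene USP34, whose product stabilises AXIN, fell by 0.47 (limma adjusted p = 0.0403), a call lost without any single array other than 2D replicate 2 (up to 0.143). APC gave -0.02 ± 0.14 (SE) and GSK3A 0.19 ± 0.10 (adjusted p = 0.335). GSK3B gave -0.44 ± 0.12 (adjusted p = 0.0563), with all 3D arrays below the 2D arrays. Of 18 listed nuclear partners of beta-catenin 11 were measured, and the TCF factor genes TCF7L1 and TCF7L2 were not. Of those measured 1 rose, 0 fell and 10 did not pass (median -0.11). The riser was BCL9, which links beta-catenin to Pygopus, with 0.53 ± 0.11 (SE, adjusted p = 0.0254). That call was lost without 3D or 2D replicate 2 or 3 (up to 0.101).

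Of 18 other target genes of the pathway 3 rose, 3 fell and 12 did not pass (median 0.04). The cell cycle gene CCND1 rose by 0.59 ± 0.10 (SE, limma adjusted p = 0.00903). CD44 (0.58 ± 0.14) and SOX9 (0.53 ± 0.12), the other risers, were named after their values were seen. The transcription factor gene MYC read 7.70, 7.52 and 7.56 in 3D, against 8.32, 8.66 and 8.70 in 2D, a change of -0.97 ± 0.13 (adjusted p = 0.00332). BMP4, a bone morphogenetic protein gene, fell by 0.84 and the proteoglycan gene VCAN by 0.82. Another probe set of VCAN, its most variable, gave -1.03 (limma adjusted p = 0.0339). BMP4 was not called without 2D replicate 1 or 3D replicate 2 or 3 (adjusted p up to 0.106), and VCAN was not called without 3D replicate 2 (0.0592). CD44 kept its call only without 3D replicate 1, and SOX9 only without 2D replicate 3 (up to 0.121 otherwise for each). SP5, a direct target of beta-catenin in many tissues, gave 0.06 ± 0.12 (SE, adjusted p = 0.832).

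Of 8 planar polarity and non-canonical genes measured 2 rose, 1 fell and 5 did not pass (median 0.04). DAAM2, encoding a formin that binds Dishevelled, rose by 0.70 ± 0.11 (SE, limma adjusted p = 0.00676). PRICKLE1, a core planar polarity gene, read 6.89, 6.78 and 7.03 in 3D, against 7.91, 8.20 and 8.19 in 2D, a change of -1.20 ± 0.12 (adjusted p = 0.00093).

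**Figure D4:**
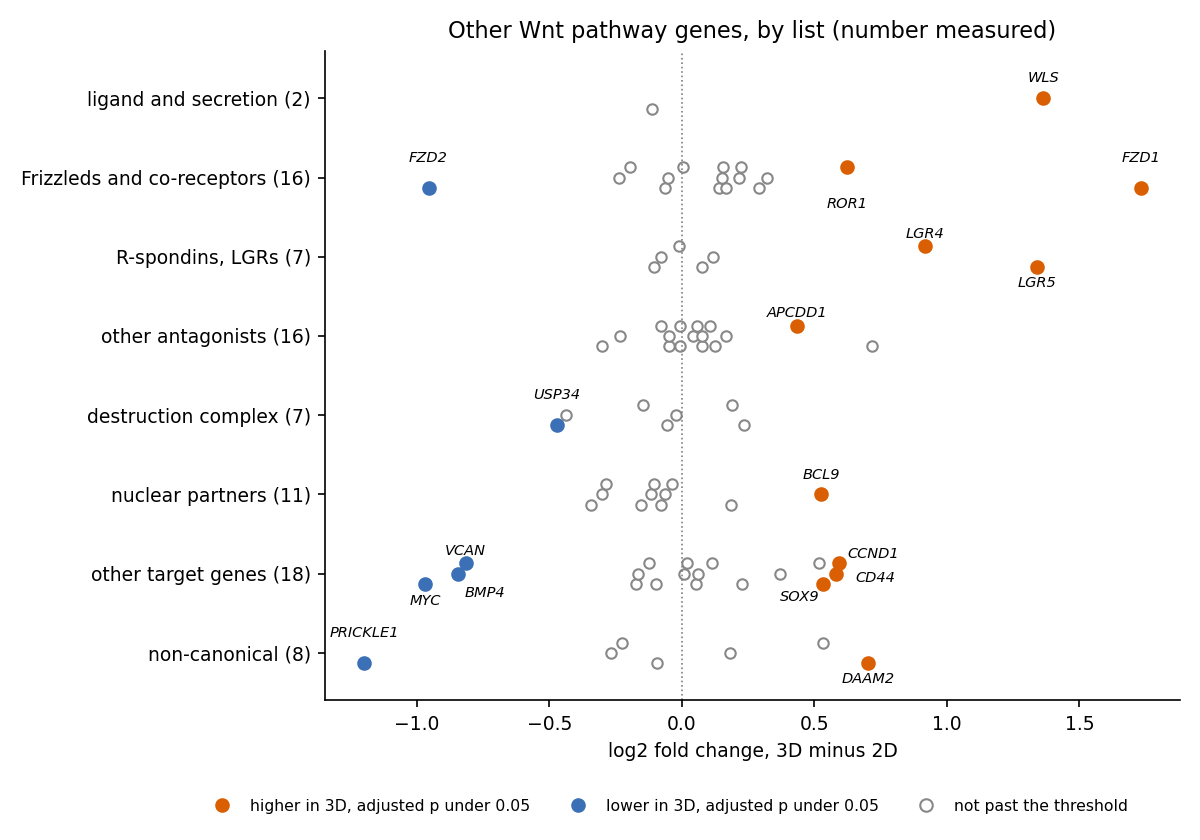
Log2 fold change (3D minus 2D) of the measured genes of the 8 other Wnt lists, 1 riser of the non-canonical list aside, orange where higher and blue where lower in 3D at a limma adjusted p under 0.05, and open where not past the threshold; heights within a list only separate the points. Among the genes shown, FZD1 (1.73), WLS (1.36) and LGR5 (1.34) lie farthest to the right and PRICKLE1 (-1.20) farthest to the left.

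Of the 18 called pathway genes 13 had windows in the promoter table, 18 windows in all, and 1 of these (5.56%) held the TCF and LEF motif. It belongs to a start of DAAM2 and is shown because that gene rose, chr6:39792730-39792979, plus strand, with the match 201 bases before the start in capitals.
DAAM2: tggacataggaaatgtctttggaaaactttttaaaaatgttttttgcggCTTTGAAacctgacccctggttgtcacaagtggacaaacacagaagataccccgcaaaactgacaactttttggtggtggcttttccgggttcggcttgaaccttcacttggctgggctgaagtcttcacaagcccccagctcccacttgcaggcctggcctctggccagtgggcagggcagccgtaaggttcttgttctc
Among the sequences shown, the DKK1 window belongs to a gene that fell and the DAAM2 window to one that rose.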

How the data were processed

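The deposited table holds log2 values of 53617 probe sets on 6 arrays, made by the authors with RMA, per the submitters' processing notes, which name no version or filter. That they are log2 follows from their range (0.30 to 13.87, array medians 4.30 to 4.37). The labelling kit in the labels and the annotated array are of different types, which was not resolved. Probe sets were named through the platform annotation (16098 with 1 symbol, 37519 with none) and current RefSeq symbols, and each gene was represented by its probe set with the highest mean.

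The comparison used R 4.3.3 and limma 3.58.1 (with statmod 1.5.0), with group as the single term, two-sided tests, Benjamini-Hochberg adjustment over 14884 genes and a threshold of 0.05. The fit was tested on simulated data. The number of arrays limits the precision. Members and lists were chosen with earlier results of these data known. Named were all members, up to 4 called genes with the largest absolute change per list, and the 3 genes most like each called member. WNT2, the R-spondin genes, DKK2, DKK4, NKD2, FRZB, APC, both GSK3 genes, SP5, CD44 and SOX9 were added after their values were seen. Of the genes this rule names, 1 that rose is counted but not reported here. Replicate numbers were not taken to pair the samples. The alternatives are given in the closing section.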

Additional observations from a re-analysis of the deposited data

How the results depend on the processing

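Each result was recomputed after quantile normalization of the table, after centring the arrays, without dim probe sets, with gene means or the most variable probe set, with every probe set tested, with a trended and robust prior variance, with a replicate block, with unequal variances gene by gene (the per-gene test), and without each array in turn. Over all genes 778 rose and 710 fell, with 420 to 1096 and 349 to 803 when 1 array was left out, 385 and 276 when all probe sets were tested, and 41 and 41 in the per-gene test. As each member had 1 probe set, gene means and the most variable probe set left its values unchanged. AXIN2 and DKK3 kept their calls in every alternative except the per-gene test (adjusted p = 0.131 for AXIN2 and 0.05002 for DKK3). DKK1 lost its call there (0.233), with all probe sets tested (0.0784) and when 3D replicate 3 or either of 2D replicates 1 and 2 was left out. Of the 9 members the per-gene test thus called 0 higher and 0 lower (1 higher and 3 lower at an unadjusted p under 0.05, beside 8.78% and 9.58% of all genes in that test), testing all probe sets gave 1 risen and 1 fallen, and leaving out 1 array gave 1 risen and 1 to 2 fallen. Of the other pathway genes 12 rose and 6 fell. These counts were 7 and 2 when all probe sets were tested, and 7 to 12 and 2 to 5 when 1 array was left out. The per-gene test called 0 higher and 0 lower. At an unadjusted p under 0.05 that test gave 11 higher and 8 lower, or 12.9% and 9.41%, beside 8.78% and 9.58% of all genes. LEF1, which the filter on dim probe sets removed and which had no call elsewhere, changed sign with centring (0.0044), when 3D replicate 3 (0.15) or 2D replicate 1 (0.12) was left out, and its lowest value without 1 array was -0.0859.

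With the replicate number as a block, 433 genes rose and 327 fell, the members gave 1 and 2, and the other pathway genes 8 and 2. Same-numbered arrays did not deviate together (correlations of -0.28, -0.06 and -0.18 for numbers 1, 2 and 3), so the numbers were not taken as pairs.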
